A study of Rattus norvegicus with 5 samples.

Results

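The contactins are neuronal cell-surface proteins of the immunoglobulin superfamily, and the contactin-associated proteins are transmembrane proteins that sit beside some of them on axons. Every probe of the rat arrays annotated with 1 of 9 symbols (Cntn1, Cntn2, Cntn3, Cntn4, Cntn5, Cntn6, Cntnap1, Cntnap2 and Cntnap4) was taken, whatever its values. Affymetrix probe sets were found for 8 of the 9 genes, the exception being Cntnap4, and these genes had 10 probe sets among the 20826 with a single gene symbol, which cover 14217 genes. Probes of a 2-colour array were found for 8 of the 9 genes, the exception being Cntnap2, with 1 probe each among 12750 probes of 9653 genes. On both platforms 7 of the genes were measured.

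Cerebellar cells of 8-day-old Wistar rats were dispersed and kept as a primary culture in which granule neurons differentiate, and the question asked of the arrays was which genes are induced during differentiation and which of these depend on topoisomerase II beta. RNA was taken on day 1 of culture (D1) and on day 5 (D5), and from a further culture (D5+) that received 10 µM ICRF-193 daily up to day 5. ICRF-193 is an inhibitor specific for type II topoisomerases that also depletes the beta enzyme. No genotype beyond the strain is given for any of the 3 conditions, and the medium of all cultures was changed during the first day to one with 10 µM cytosine arabinoside, which holds back dividing glia, so that D1 cells had met it for a shorter time. There were 3 Affymetrix arrays with 1 array per condition and 2 arrays of the 2-colour kind, both with D5 in the Cy5 channel and with either D1 or D5+ in the Cy3 channel. No condition was replicated within a platform, so differences were described without a test and precision is limited by the number of arrays. Nothing in the sources says how many animals were pooled or whether both platforms shared cultures.

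Contactins are held to the membrane by a lipid anchor and carry immunoglobulin and fibronectin domains with which they bind L1-family proteins, receptor phosphatases, tenascins and amyloid precursor family proteins. In cerebellar granule neurons Cntn2 (TAG-1) is known as a protein of newly extended axons, whereas Cntn1 (F3) stays on parallel fibres. On myelinated axons Cntn1 pairs with Cntnap1 (Caspr) at the paranode, and Cntn2 pairs with Cntnap2 (Caspr2), which gathers potassium channels at the juxtaparanode.

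The Affymetrix values were MAS5 signals, on a linear scale with no unit. A signal under the 40th percentile of its array was taken as not above background. The methods set unexpressed genes apart by absent calls. The floor used here stands in for those calls, so groups can differ from the published ones. This floor was 19.2 at D1, 16.7 at D5 and 16.3 at D5+, and where 1 side of a ratio lay under it, the fold is given as a lower bound against the floor. D5/D1 is the induction and D5+/D5 the inhibition, divided as in the methods at 2 and 0.5: A genes were higher at D5, B genes even and C genes lower, the digit 1 marks genes that were lower with ICRF-193, 2 those that were even and 3 those that were higher, and D stands for unexpressed genes. As there were no replicate arrays, the only yardstick of noise is the SD of a log2 ratio between probe sets of the same gene. For log2 D5/D1 it was 0.481 at signals of 20 to 50, 0.297 at 50 to 200 and 0.229 at 200 to 1000. For log2 D5+/D5 it was 0.431, 0.258 and 0.166 over the same ranges. Under 20 it was 1.66 and 1.57, so differences between signals of that size cannot be read. Changes of the culture or the RNA that all probe sets share are left out of these SDs.

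The 3 contactins that changed most between the arrays were Cntn2, Cntn4 and Cntn6, and their promoters are printed for this reason. The sequences are RefSeq's for the GRCr8 assembly and run from 250 bases before to 50 bases after the annotated start, read 5′ to 3′ on the strand of the gene. Capitals mark matches to CANNTG, the general letters of an E-box, and to TTGGC, the short recognition motif of NFI factors, on either strand. Cntn2 lies on the minus strand (chr13:46527976-46528275), Cntn4 on the plus strand (chr4:140180571-140180870) and Cntn6 on the plus strand (chr4:138911317-138911616).
Cntn2: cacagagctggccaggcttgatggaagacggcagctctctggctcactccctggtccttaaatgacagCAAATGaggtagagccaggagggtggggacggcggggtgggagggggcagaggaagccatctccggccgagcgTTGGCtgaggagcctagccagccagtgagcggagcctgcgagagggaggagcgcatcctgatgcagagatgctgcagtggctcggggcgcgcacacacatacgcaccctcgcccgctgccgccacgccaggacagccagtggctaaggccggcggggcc
Cntn4: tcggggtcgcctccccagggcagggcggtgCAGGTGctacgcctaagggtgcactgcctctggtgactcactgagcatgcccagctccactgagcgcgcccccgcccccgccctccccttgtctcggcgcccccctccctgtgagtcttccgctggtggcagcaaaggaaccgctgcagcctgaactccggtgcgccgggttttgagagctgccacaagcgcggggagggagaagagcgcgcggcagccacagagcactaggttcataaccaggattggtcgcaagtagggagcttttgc
Cntn6: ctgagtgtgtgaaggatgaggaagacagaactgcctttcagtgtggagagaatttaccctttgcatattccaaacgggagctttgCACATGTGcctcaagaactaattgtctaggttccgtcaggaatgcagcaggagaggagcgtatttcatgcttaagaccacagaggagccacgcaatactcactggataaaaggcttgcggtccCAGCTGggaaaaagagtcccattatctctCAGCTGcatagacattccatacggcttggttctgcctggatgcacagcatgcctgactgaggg
The windows of Cntn2 and Cntn4 were rich in G and C (67.0% and 66.7%, against a median of 51.7% over 33469 promoters of this length) and held 19 and 21 CpG steps, where the median promoter held 7. The window of Cntn6 had 49.3% G and C and 6 CpG steps. CANNTG was matched once in Cntn2, once in Cntn4 and at 4 places in Cntn6, of which 2 overlap in the run CACATGTG. It was matched in 72.1% of all promoters, so a single match sets a gene apart from few others. TTGGC was matched in Cntn2 alone of these 3 and in 45.8% of all promoters. Of the other contactins, the windows of Cntn3 and Cntn5 held no CpG step and had 30.7% and 36.7% G and C, and that of Cntn1 had 49.0% and 5 CpG steps. TGACG (the core of a CRE, searched on both strands like the others) was matched in Cntn6 and in 21.2% of promoters, CCAAT in Cntn4 and in 37.5%, and TATAA in none of the 3 printed windows and in 26.2% of promoters, and no match of these motifs overlaps a capital run in the printed windows, although ATTGG, the reverse of CCAAT, can share letters with TTGGC. The start that granule cells use was not measured.

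Cntn4 (BIG-2), a contactin known for axon guidance in the olfactory and visual systems of the mouse, was the contactin with the clearest peak at D5. Its probe set 1369155_at had signals of 11.8 at D1, 42.6 at D5 and 11.9 at D5+. D5 alone was above the floor, which places D5 at least 2.22-fold over D1 and at least 2.61-fold over D5+. Measured signals gave a log2 D5/D1 of 1.85 and a log2 D5+/D5 of -1.84, and the gene fell in A1. A1 held 2.04% of all 14217 genes and 2 of the 8 contactin and contactin-associated genes on the array. The 2-colour arrays, which are separate hybridizations, gave the same order: the log ratio was 1.41 for D5 over D1, the 319th highest of 20438 probes, and 2.61 for D5 over D5+, the 7th highest of 20404. Only 0.0343% of probes lay as far from 0 in the latter comparison. The sources used here do not give the log base of these ratios. The value of 2.61 stands for 6.09-fold as a log2, for 13.6-fold as a natural log and for more with any larger base. On the Affymetrix side the signal was low. Cntn4 went to D with a floor at the 60th percentile, and with the floor value added to every signal its log2 ratios were 0.94 and -1.07, which is B1.

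Cntn2 changed the other way. Its probe set 1387424_at had signals of 290.1 at D1, 43.5 at D5 and 53.6 at D5+, all above the floor. It was 6.67-fold lower at D5 than on D1 (log2 D5/D1 of -2.74, the 121st lowest of 10654 expressed genes) and 5.41-fold lower on D5+ than on D1. The difference between D5+ and D5 (log2 0.30) was within the SD of 0.431 for signals of 20 to 50. It was past the SD of 0.258 for signals of 50 to 200, and the signals of 43.5 and 53.6 lie on either side of 50. The difference was short of 2-fold, so Cntn2 was in C2, the genes that were lower at D5 and even with ICRF-193. On the 2-colour arrays its D5 over D1 ratio of -2.70 was the 6th lowest of 20438 probes. The D5 over D5+ ratio was -0.69, the 479th lowest of 20404. Its direction was that of the Affymetrix arrays, where the difference was short of 2-fold.

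Cntn6 (NB-3), which activates Notch1 and is known from the postnatal cerebellum of the mouse, was also lower at D5, and was higher again with ICRF-193. Its probe set 1387556_at had signals of 124.6 at D1, 13.6 at D5 and 39.5 at D5+. D5 lay under the floor, so D1 was at least 7.46-fold over D5, and D5+ at least 2.37-fold over D5. D5+ stayed 3.15-fold under D1. Measured signals gave log2 ratios of -3.20 for D5/D1 and 1.54 for D5+/D5, both with the D5 side under the floor, and the gene was in C3. The 2-colour arrays gave -2.03 for D5 over D1, the 23rd lowest, and -1.16 for D5 over D5+, the 125th lowest, which is the same direction in both comparisons. Its D5+/D5 call was lost at a 3-fold threshold, with a floor at the 60th percentile, which put the gene in D, and with the floor value added (log2 0.88).

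Cntn1, the most widely expressed contactin of the nervous system, had the steadiest course between D1 and D5. The probe set 1387385_at had signals of 613.2 at D1, 540.8 at D5 and 339.5 at D5+. Its log2 D5/D1 of -0.18 was within the SD of 0.229. With ICRF-193 it was 1.59-fold lower (log2 -0.67), which is past the SD of 0.166 and short of 2-fold, so it was in B2. On the 2-colour arrays the ratios were -0.083 for D5 over D1 and 0.342 for D5 over D5+, the 1476th highest of 20404. Both signs were those of the Affymetrix arrays.

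Signals of Cntn3 (BIG-1, known from Purkinje cells) and Cntn5 (NB-2, known from the auditory pathway) were not above background on any array. Cntn3 (1369351_at) had 6.1 at D1, 3.1 at D5 and 7.2 at D5+, and Cntn5 (1369366_at) had 2.3, 0.8 and 0.7 in the same order. No fold was taken from these values. Their 2-colour ratios were -0.103 and -0.405 for Cntn3 and 0.046 and 0.110 for Cntn5, each pair given as D5 over D1 and then D5 over D5+.

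**Figure D1:**
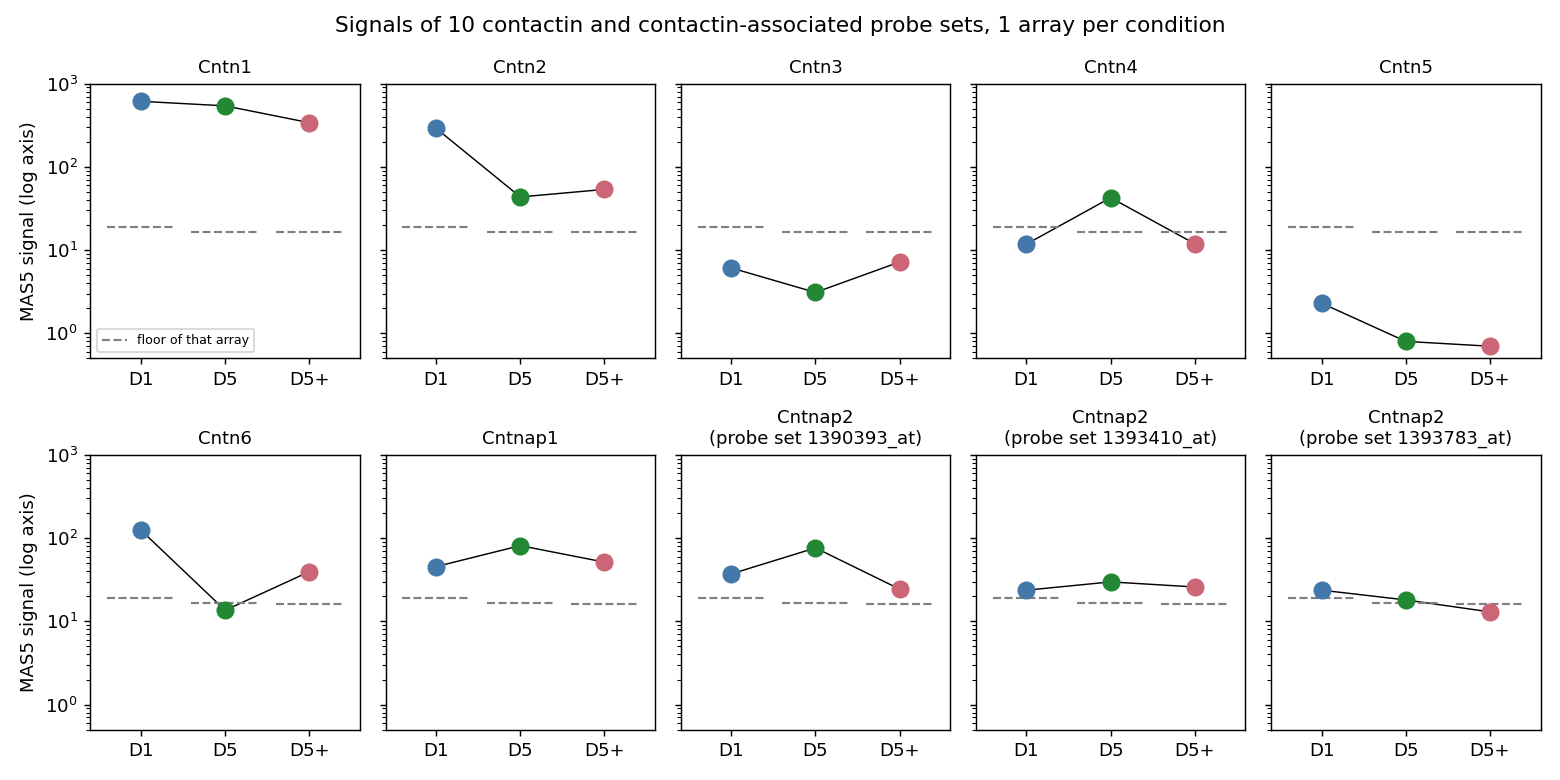
MAS5 signals (log axis, no unit) of the 10 contactin and contactin-associated probe sets, with 1 point for each of the D1, D5 and D5+ arrays and a dashed line at the floor of that array. Cntn4 lay above its floor on D5 alone, Cntn2 was high on D1, Cntn6 was under the floor on D5, and only 1 of the 3 Cntnap2 probe sets peaked at D5 past 2-fold.

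Of the contactin-associated genes, Cntnap2, whose protein clusters potassium channels with Cntn2, was in A1 by 1 of its 3 probe sets. The brightest, 1390393_at, had signals of 37.2 at D1, 76.3 at D5 and 24.4 at D5+. It was 2.05-fold higher at D5 than on D1 and 3.13-fold higher than on D5+ (log2 D5+/D5 of -1.64, the 226th lowest of 10550 genes). The other probe sets were in B2. Signals of 1393410_at were 23.7 at D1, 29.8 at D5 and 25.9 at D5+, and those of 1393783_at were 23.7, 18.1 and 13.0, the last of them under the floor. Their log2 D5/D1 was 0.33 and -0.39, so the probe sets of this gene disagreed in sign. Over the 3 probe sets the median was 0.33 for log2 D5/D1 and -0.48 for log2 D5+/D5, both short of 2-fold, and the D5/D1 call of 1390393_at was also lost at a 3-fold threshold and with the floor value added (log2 0.72).

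Cntnap1, the partner of Cntn1 at the paranode, had a milder peak at D5. The probe set 1370185_at had signals of 45.5 at D1, 81.3 at D5 and 51.5 at D5+. It was 1.79-fold higher at D5 than on D1 and 1.58-fold higher than on D5+, past the SDs of 0.297 and 0.258 (log2 0.84 and -0.66) and short of 2-fold, which placed it in B2. With the arrays scaled to an equal median its log2 D5/D1 was 1.01, which is A2. The 2-colour ratio for D5 over D1 was 0.421, the 2393rd highest of 20438. For D5 over D5+ it was -0.225, opposite in sign to the Affymetrix ratio, and 29.4% of probes lay as far from 0. Cntnap4, known from the synapses of inhibitory interneurons in the mouse, was measured on the 2-colour arrays alone, with ratios of -0.408 for D5 over D1 and 0.178 for D5 over D5+, and 20.2% and 38.6% of probes lay as far from 0.

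Read as a family, 6 of the 9 genes were above the floor on at least 1 array of each comparison, and 4 of them (Cntn1, Cntn2, Cntnap1 and Cntnap2) on all 3 arrays. At D5, 2 of the 6 (Cntn4 and Cntnap2) were past 2-fold higher than on D1, beside 9.25% of 10654 expressed genes, and 2 (Cntn2 and Cntn6) were past 2-fold lower, beside 11.8%. With ICRF-193, 2 (Cntn4 and Cntnap2) were past 2-fold lower, beside 5.87% of 10550 expressed genes, and 1 (Cntn6) was past 2-fold higher, beside 3.18%. With 6 genes these counts are descriptions of named genes and not of a trend. For induction the median log2 ratio was 0.33 over the 6 and -0.21 over all expressed genes. For inhibition it was -0.67 over the 6 and -0.12 over all. Cntn3, Cntn5 and Cntnap4 are not in these medians. Among all genes past 2-fold in either direction of induction, 44.1% were the higher ones in the deposited signals, and 56.9% were when the arrays were scaled to an equal median or quantile normalized. The groups of Cntn1, Cntn2, Cntn4, Cntn6 and Cntnap2 were the same under both scalings. Induction and inhibition share the D5 array, so a high or low D5 signal moves both at once.

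**Figure D2:**
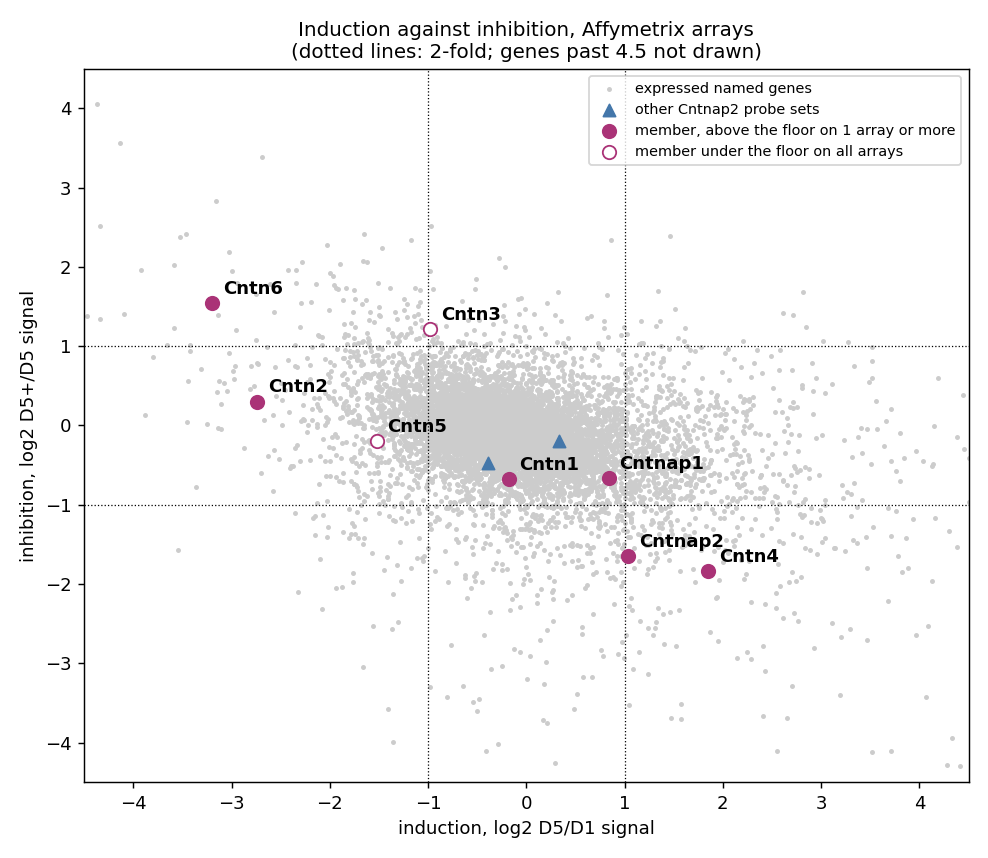
Induction (log2 D5/D1 signal, horizontal axis) against inhibition (log2 D5+/D5 signal, vertical axis) on the Affymetrix arrays, with expressed named genes in grey, the contactin and contactin-associated genes in colour and dotted lines at 2-fold. Cntn4 and Cntnap2 lie in the lower right field (A1), Cntn6 in the upper left (C3), Cntn2 at the left (C2), and Cntn1 and Cntnap1 between the lines (B2).

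The 2-colour arrays shared no array with the Affymetrix set and gave the same sign for 5 of 5 expressed genes for D5 against D1, beside 70.7% of 6968 genes. For D5 against D5+ the sign was the same for 4 of 5, beside 66.3% of 6915 genes, with Cntnap1 as the exception. The SD between 2-colour probes of one gene was 0.313 for D5 over D1 and 0.233 for D5 over D5+, on the scale of the deposited log ratios. Cntn2, Cntn4 and Cntn6 lay past these SDs in both comparisons. Cntn1 lay past it for D5 over D5+ only, and Cntnap1 for D5 over D1 only. D5 was in the Cy5 channel of both arrays with no dye swap, so effects of dye and condition cannot be told apart in these ratios.

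**Figure D3:**
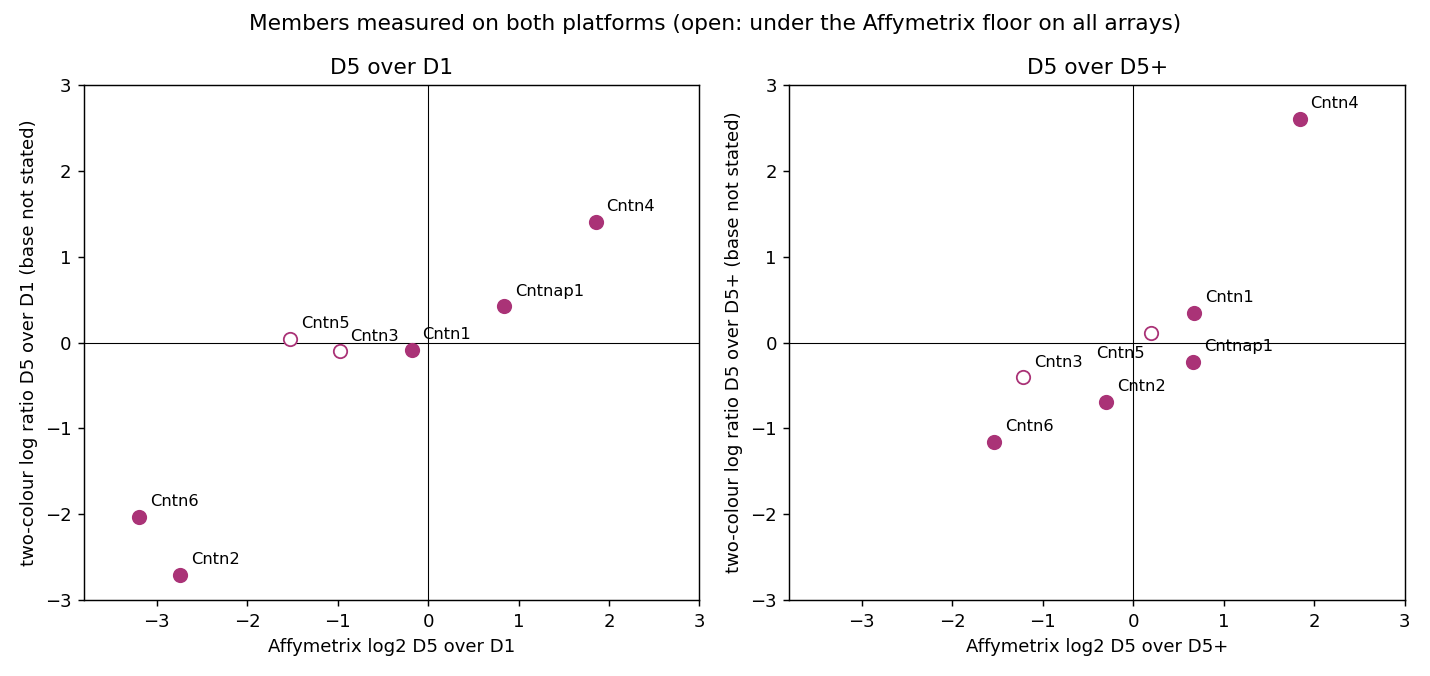
Affymetrix log2 ratio (horizontal axis) against the 2-colour log ratio of unstated base (vertical axis) for the 7 genes on both platforms, D5 over D1 at left and D5 over D5+ at right, with open points for genes under the Affymetrix floor on all arrays. Cntn4 stands at the upper right and Cntn2 and Cntn6 at the lower left of both panels, and Cntnap1 lies in the lower right field for D5 over D5+.

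Opposite courses met in a single stretch of chromosome 4. In the gene order of the GRCr8 annotation, which was used for names and order only, the named protein-coding genes run Ppp4r2, Pdzrn3, Cntn3, Chl1, Cntn6, Cntn4, Il5ra, Trnt1 and Crbn. Cntn6, lowest at D5, and Cntn4, highest at D5, are direct neighbours. Chl1, a relative of L1 that can bind contactins, precedes Cntn6 and had signals of 130.9 at D1, 100.2 at D5 and 71.6 at D5+ (log2 D5/D1 of -0.39). The ubiquitin ligase Pdzrn3, ahead of Cntn3, had 898.9, 472.4 and 303.6 in that order. Il5ra, an interleukin receptor chain next to Cntn4, was under the floor on all arrays (2.3, 0.9 and 0.8). Crbn, the substrate receptor of a ubiquitin ligase, had 285.4, 189.5 and 220.0. Within this stretch none but Cntn4 had its highest signal at D5, among the 8 genes with an Affymetrix probe set. Cntnap2 lies elsewhere on chromosome 4 and its neighbour Cul1, a ubiquitin ligase scaffold, had 608.7 at D1, 632.5 at D5 and 557.4 at D5+. Nfasc, which codes for neurofascin of the node and paranode, follows Cntn2 on chromosome 13 and had 109.7 at D1, 133.5 at D5 and 118.5 at D5+, beside the lower Cntn2 at D5.

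**Figure D4:**
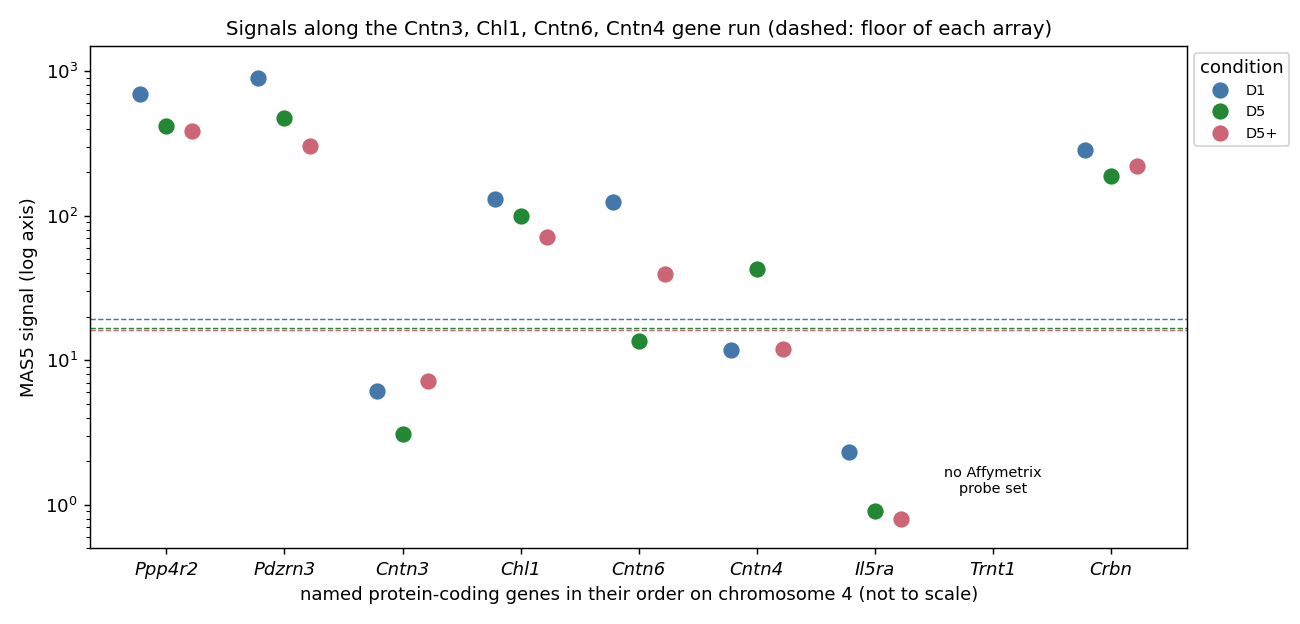
MAS5 signals (log axis, no unit) on the D1, D5 and D5+ arrays for the named protein-coding genes around Cntn3, Chl1, Cntn6 and Cntn4, in their order on chromosome 4 and not to scale, with dashed lines at the floors. Signals compare within a gene and not between genes; Cntn6 dips at D5 where its neighbour Cntn4 peaks.

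Few genes shared the course of Cntn2 or of the brightest Cntnap2 probe set, whose course the other probe sets of Cntnap2 did not share. Likeness was taken as the distance between genes in log2 D5/D1 and log2 D5+/D5, over the 3 arrays and among 9284 other genes above the floor on all of them. Within a distance of 0.5 lay 19 genes for Cntn2 (0.205%) and 49 for Cntnap2 (0.528%), against 637 for Cntnap1 (6.86%) and 1747 for Cntn1 (18.8%). Cntn6 was left out because its D5 signal was under the floor. Cntn4 had 19 genes of 9285 within that distance (0.205%), but its D1 and D5+ signals were under the floor, so its place is uncertain. Most genes changed little, so a gene with a larger change has fewer others within a fixed distance. Among the 3 nearest to Cntn2 were Ankdd1a (283.3, 40.2 and 55.2) and Sinhcaf (258.2, 37.9 and 53.5). Nearest to Cntnap2 were the phosphatase Ppm1l (494.9, 962.7 and 306.9, with 2-colour ratios of 0.84 and 1.23), Bdh2 and the vesicle GTPase Rab3c. For Cntn1 they were Ctdp1, N6amt1 and Bop1, and for Cntnap1 they were R3hdm2, Akain1 and Map1a, with so many genes as close that their order carries little.

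The known partners of these proteins were counted in 3 lists, by the measured signals as over all genes. Among components of the axonal node, paranode and juxtaparanode, 20 of 22 genes had a probe set, and of 18 expressed ones 8 were past 2-fold higher at D5 (beside 9.25% of all genes) and 1 was lower, with a median log2 D5/D1 of 0.80 against -0.21 over all genes. The potassium channel genes Kcna4 (41.5 at D1, 285.1 at D5 and 131.4 at D5+) and Kcna1 (28.8, 93.7 and 64.9), the channel subunit Kcnab1 (102.4, 604.5 and 179.5) and the sodium channel genes Scn2a (34.8, 235.0 and 156.5) and Scn2b (25.7, 102.4 and 83.5) were among the higher ones. Kcnab1 and Kcna4 were in A1 with Cntnap2, and Scn2a and Scn2b were in A2. The 2-colour ratio of Scn2b for D5 over D1 was -0.04, unlike its Affymetrix ratio. For Kcna4 it was 0.14, within the SD of 0.313 between 2-colour probes of one gene. Kcna2, another potassium channel gene of the list, did not peak at D5 (108.4, 88.9 and 150.3). Dlg2, a scaffold of the juxtaparanode, was the lower one (46.7, 16.7 and 25.6). With ICRF-193, 3 of 19 were past 2-fold lower, namely Kcnab1 (log2 D5+/D5 of -1.75), the ankyrin gene Ank2 (-1.28) and Kcna4 (-1.12), beside 5.87% of all genes, and none was past 2-fold higher. Lgi1, a secreted ligand of Adam22, came closest to that (31.3, 52.4 and 103.6). Ank2 has 3 probe sets, and its expressed ones fell in more than 1 group, so its call rests on the brightest.

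Of 13 cell-surface and matrix partners, 12 had a probe set and all 12 were expressed, with a median log2 D5/D1 of -0.20 against -0.21 over all genes. Tenascin C (Tnc, 181.6 at D1, 461.0 at D5 and 324.5 at D5+) was the 1 gene past 2-fold higher at D5 (beside 9.25%) and none was past 2-fold lower (beside 11.8%). The L1-family genes L1cam (496.2, 309.0 and 331.5) and Nrcam (378.8, 220.3 and 153.7), and Notch1 (66.4, 34.1 and 39.3), were on the lower side and short of 2-fold. With ICRF-193 the measured signals of the proteoglycan gene Ncan (21.1, 23.2 and 10.5) were past 2-fold lower (1 of 12, beside 5.87%), but the D5+ signal was under the floor, and against the floor the fold is short of 2. App, whose product binds Cntn4, had 3417.1, 2903.4 and 2659.7.

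Of the 10 cytoplasmic and signalling partners, all expressed, 2 were past 2-fold higher at D5 (beside 9.25% of all genes) and 2 were lower (beside 11.8%), with a median log2 D5/D1 of -0.27 against -0.21 over all genes. Dab1, the adaptor of reelin receptors, had 38.6 at D1, 385.7 at D5 and 142.1 at D5+ (log2 D5/D1 of 3.32 and log2 D5+/D5 of -1.44, in A1). Its 2-colour ratios of 0.28 for D5 over D1 and 0.19 for D5 over D5+ had the same direction and lay within the SDs of 0.313 and 0.233. Apba1, a presynaptic adaptor of Cask, only just passed 2-fold (523.5, 1048.8 and 557.7). The polarity gene Pard3 had 71.5, 19.4 and 14.6, and Cask, a scaffold that binds neurexin-type tails, had 421.6, 158.6 and 83.2. Pard3 has 4 probe sets, and its expressed ones fell in more than 1 group, so its call rests on the brightest. The 2-colour ratio of Cask for D5 over D1 was 0.10, opposite in sign to its Affymetrix ratio. Dab1 was the 1 gene past 2-fold lower with ICRF-193, beside 5.87% of all genes.

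**Figure D5:**
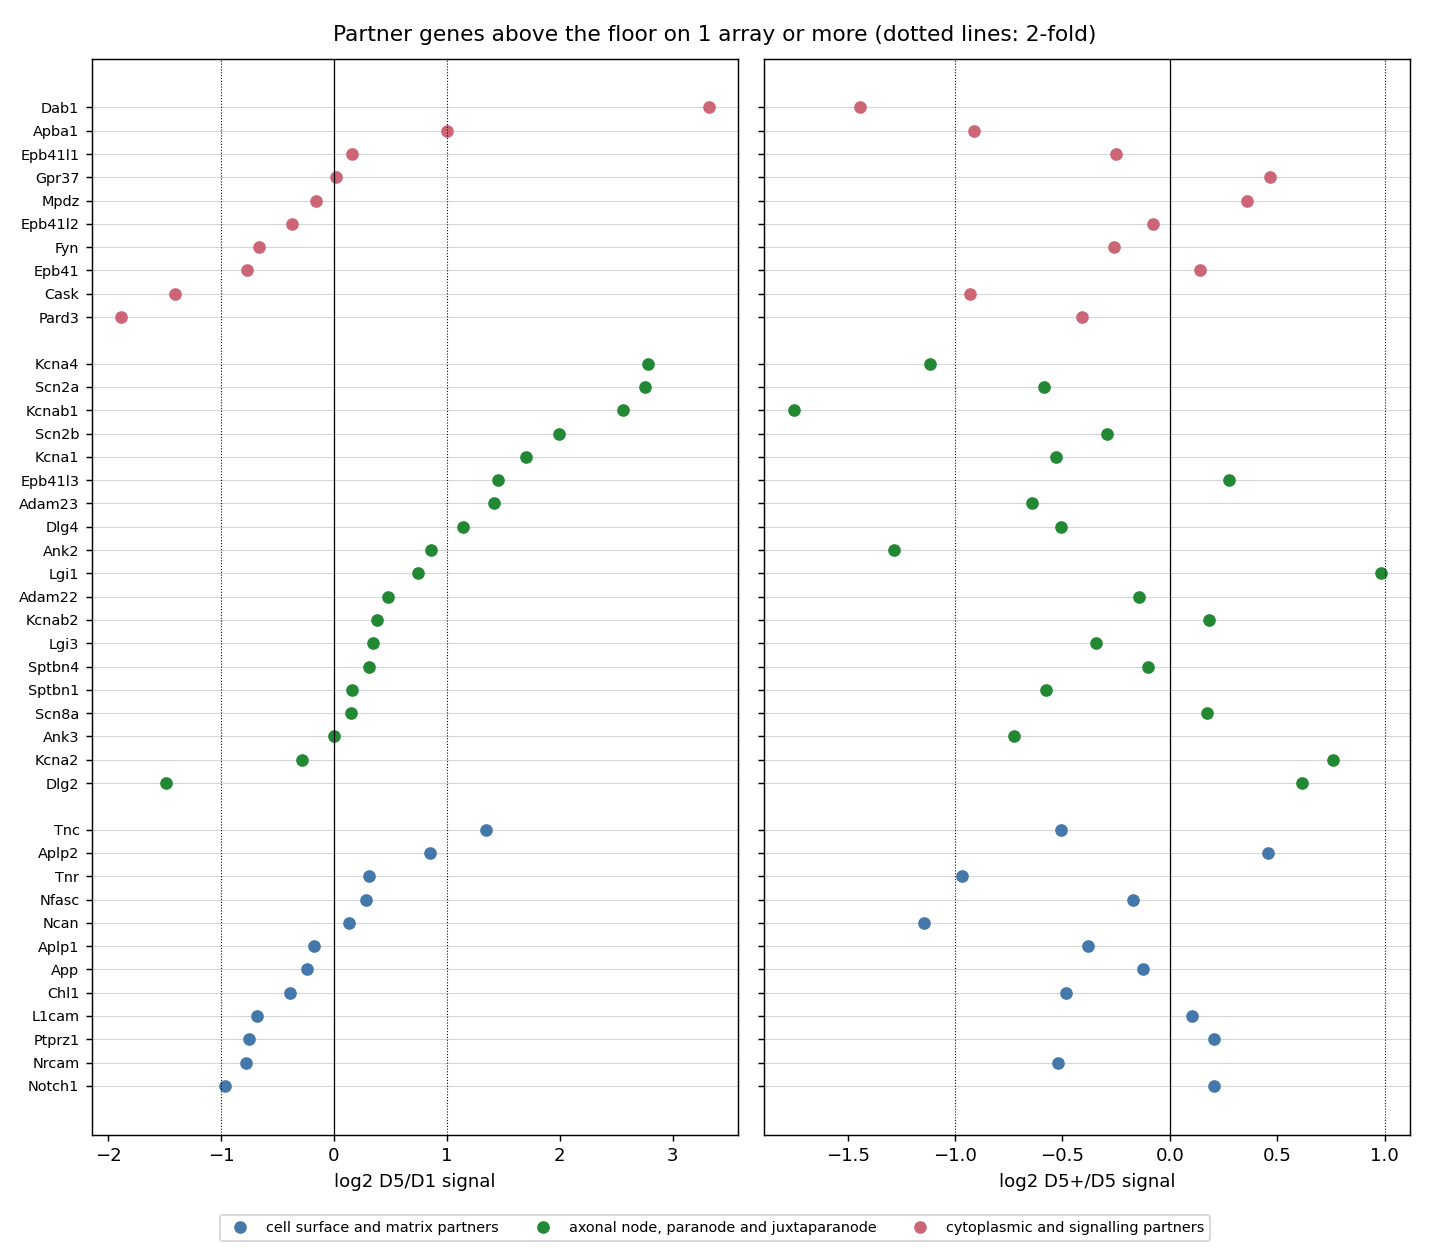
Log2 D5/D1 signal (left) and log2 D5+/D5 signal (right) of each expressed partner gene on the Affymetrix arrays, coloured by list, with dotted lines at 2-fold. Most genes of the node, paranode and juxtaparanode list lie right of 0 at D5 (median 0.80), whereas the other lists spread to both sides (medians -0.20 and -0.27).

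The cultures were mixed, and in bulk RNA fewer cells of a type and less RNA per cell cannot be told apart. Of the markers, 10 of 11 granule neuron genes had a probe set and all 10 were above the floor, with summed signals of 13161.4 at D1, 9449.8 at D5 and 7115.7 at D5+. At D5, 2 of the 10 were past 2-fold higher than at D1 (beside 9.25% of all genes) and 4 were lower (beside 11.8%), with a median log2 D5/D1 of -0.71. With ICRF-193, 1 of the 10 was past 2-fold lower (beside 5.87%), and the median log2 D5+/D5 was -0.18. This gene was Reln (3794.7, 2617.4 and 1099.0), which made up most of the fall of the sum from D5 to D5+. Gabra6, a receptor subunit of mature granule neurons, had 84.5, 962.7 and 686.4, whereas the neuronal splicing factor Rbfox3 had 501.4, 78.8 and 82.4 and the transcription factor Pax6 had 1804.4, 640.2 and 829.9. Markers of other cells moved with some of the results above. Progenitor and cell cycle markers were past 2-fold lower at D5 in 5 of 6 expressed genes (beside 11.8%), as Cntn2 and Cntn6 were (summed signals 1333.1, 544.5 and 315.6). With ICRF-193 the median log2 D5+/D5 of that list was -0.88, whereas Cntn2 and Cntn6 were not lower. Astrocyte markers were past 2-fold lower with ICRF-193 in 5 of 8 (beside 5.87%), as Cntn4 and Cntnap2 were (sums 4307.4, 6077.6 and 2903.5). Gfap (1016.1, 1511.9 and 167.0) was among the 5. The astrocyte genes S100b (120.8, 339.3 and 512.9) and Gja1 (469.2, 921.2 and 1062.8) were higher with ICRF-193, short of 2-fold. For Aldh1l1, 1 of the 5, the 2-colour ratio for D5 over D5+ was -0.20, opposite in sign to its Affymetrix ratio. At D5 astrocyte markers were past 2-fold higher in 2 of 8 (beside 9.25%). Eomes, a marker of unipolar brush cells and the only gene of that list with a probe set, had 245.7 at D1, 20.4 at D5 and 83.2 at D5+, beside the like course of Cntn6. Endothelial, mural and meningeal markers summed to 309.8, 1225.1 and 3052.5, at D5 and D5+ mostly from the collagen genes Col1a1 (43.6, 306.7 and 982.1) and Col1a2 (107.5, 774.2 and 1827.7). The endothelial gene Cldn5 had 38.1, 7.3 and 8.2, with D5 and D5+ under the floor. Its 2-colour ratio for D5 over D1 was -0.07. Oligodendrocyte markers summed to 2804.2, 1865.1 and 2852.5, inhibitory neuron markers to 1383.8, 1623.6 and 1132.4, and microglial markers to 809.6, 972.5 and 722.2. Mbp (1547.1, 1129.6 and 1807.8) made up most of the oligodendrocyte rise from D5 to D5+ (list median log2 D5+/D5 of 0.55). Of 9 expressed oligodendrocyte genes, 3 were past 2-fold lower at D5 (beside 11.8%) and 1 was higher with ICRF-193 (beside 3.18%). Of 8 microglial genes, only C1qa was past 2-fold higher at D5 (159.3, 335.9 and 200.1, beside 9.25%). Only Csf1r was past 2-fold lower (118.0, 48.0 and 69.8, beside 11.8%), with a list median log2 D5/D1 of -0.12. The inhibitory neuron sum fell from D5 to D5+ mostly through Sst (480.2, 577.5 and 134.6). Of 11 expressed genes of that list, 3 were past 2-fold lower with ICRF-193 (beside 5.87%). In the other direction 1 was past 2-fold higher (Gad2, 31.5, 31.2 and 86.1, beside 3.18%), and the median log2 D5+/D5 was 0.07. No marker was at 0. The part of these cells in the signals of the contactin genes was not tested.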

How the data were processed

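The authors' deposited Affymetrix values were linear signal intensities from GCOS and MAS5 (versions not given in the sources). A 50th-percentile normalization is described in the methods, but array medians over 31042 probe sets other than controls were 32.9, 29.2 and 28.0 (D1, D5, D5+), so the signals were used as deposited. The deposited 2-colour values were log ratios of Cy5 over Cy3. The sources used here give neither their base nor their normalization. Their medians were 0.0057 and 0.0015, and 62 and 96 of 20500 values were missing. The direction follows the dyes in the labels.

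Symbols came from the array annotation, and 436 Affymetrix probe sets with several symbols were left out. A signal of 0 was read as 0.1. A probe set was in D if both arrays of either ratio were under the floor. A gene with any A1 probe set was A1, and failing that one with any A2 was A2. Other genes took the group that their expressed probe sets shared, or Mix where these differed. A gene's single value is that of its brightest probe set by mean log2 signal. Reference names, gene order and promoters were those of GRCr8, and 6 of the 9 genes matched a promoter (Cntn1 to Cntn6). Named partner genes were up to 4 per list with the largest log2 D5/D1 and up to 4 with the largest log2 D5+/D5, and a few others were named after their values were seen. One gene near Cntn2 in likeness and one beside Cntn5 are not reported here. The genes and lists were chosen with earlier results of these data known. The grouping was tested on simulated data with higher signals than those of Cntn4 and Cntnap2, so that test does not cover calls at their levels. Python 3.11.15, pandas 2.3.3 and numpy 2.4.6 were used.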

Additional observations from a re-analysis of the deposited data

How the results depend on the processing

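No leave-one-out or paired analysis was possible because each condition had 1 array per platform. Counts of contactin and contactin-associated genes moved as follows. Genes past 2-fold higher at D5 (2 in the report) were 1 with the floor at the 60th percentile, 1 at a 3-fold threshold, 0 with the floor value added to every signal and 1 with the median over expressed probe sets. Genes past 2-fold lower with ICRF-193 (2) were 1 with the floor at the 60th percentile, 4 at a 1.5-fold threshold and 1 with the median over expressed probe sets. Genes past 2-fold higher with ICRF-193 (1) were 2 with the floor at the 20th percentile, 2 with no floor, 0 at the 60th percentile, 0 at 3-fold and 0 with the floor value added. A1 genes (2) were 1 at the 60th percentile, 1 at 3-fold and 0 with the floor value added. The 1.5-fold threshold added Cntn1 and Cntnap1, and the others moved Cntn3, Cntn4, Cntn6 or Cntnap2. The count past 2-fold lower at D5 and the 2-colour signs (9 of 10) kept within 1.5 times under every alternative run, and no log2 ratio changed sign. Both medians moved by less than the median SD between probe sets of single genes, a wide yardstick for a median. The median log2 D5/D1 went from 0.33 to 0.075 with the median over expressed probe sets. Of the values for single genes, 10 of 64 moved by more than the SD between probe sets, mostly with the floor value added. Low signals limit Cntn4 and Cntn6 most.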

Other observations

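Cntnap5bl1, a relative of the contactin-associated genes outside the 9 symbols and named after its values were seen, had signals of 8.5 at D1, 11.5 at D5 and 1.0 at D5+, under the floor on all 3 arrays. Ezh1, a histone methyltransferase beside Cntnap1, had 95.4, 136.5 and 106.0. Smgc and Pdzrn4, the neighbours of Cntn1, were under the floor on all arrays.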
